A study of Mus musculus with 9 samples.

Results

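The 9 genes described here encode the Nodal signal of mouse embryonic stem (ES) cells, its helpers and its antagonists: the ligands Nodal and Gdf3, the co-receptor Tdgf1, the receptor Acvr2b, the effector Smad2, its partner Foxh1, and the antagonists Lefty1, Lefty2 and Cer1. They were chosen by name, and all 9 have a row among the 18504 genes of the deposited table, which gives FPKM values (fragment counts normalised for transcript length and library depth) for polyadenylated RNA. Of the 9, 8 reached 1 FPKM in at least 1 library and entered the comparisons, and Cer1 did not. The study measured 9 libraries in 8 groups of J1 ES cells, a line of strain 129S4/SvJae, at passages 5 to 7, in which the Hippo pathway coactivator Yap1 had been raised or lowered.

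The groups were Yap1 overexpression (Yap1_OE) with its control BirA, Yap1 knockout (2 libraries, Yap1_KO1 and Yap1_KO2) with its control ESC, and Yap1 knockdown (Yap1_KD1) with its control, called Control. Differentiated cells also gave a knockdown library (dESC_Yap1_KD1) and its control (dESC_control), and the order of knockdown and differentiation is not stated. The sources used here do not state what the BirA cells carry, by which means Yap1 was changed or how the cells were differentiated. Nor do they state whether the knockout libraries came from separate clones or cultures, so their p-values rest on a spread that may be technical. All other groups hold 1 library and have no replicate check.

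Yap1 RNA checked the labels in part. It stood at 12.2% of its control in the knockdown, at 16.0% in the differentiated knockdown and at 2.98-fold of BirA in the overexpression library. In the libraries labelled Yap1_KO1 and Yap1_KO2 it stood at 87.6% and 42.2% of ESC (log2 change -0.70, SE 0.45, limma with Benjamini-Hochberg adjustment, adjusted p = 0.402), so the gene's RNA does not check those labels. Yap1_KO1 was the shallowest library, at an estimated 9.19 M (mega) fragments, and Control the deepest, at 22.3 M. ES cell markers summed to 1971 to 2622 FPKM in the 7 undifferentiated libraries and to 1171 and 1586 FPKM in the differentiated ones. Markers of primitive streak and mesoderm summed to 3.38 to 7.47 FPKM in the former and to 137 (dESC_control) and 43.2 (dESC_Yap1_KD1) in the latter. Of the ES cell markers, Pou5f1 made up most of the sum in dESC_control (927 FPKM) and dESC_Yap1_KD1 (1115). Sox2, Nanog, Zfp42, Klf4 and Esrrb each lay below all undifferentiated libraries in both. Fibroblast markers, on a list for feeder cells, summed to 6.51 to 39.7 FPKM in undifferentiated libraries, with 3 or 4 of the 7 markers at 0.

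Nodal is a ligand of the TGF-beta family. It binds activin receptors such as Acvr2b and Acvr1b together with the membrane-anchored co-receptor Tdgf1 (Cripto), and the receptors phosphorylate Smad2 and Smad3. These enter the nucleus with Smad4 and act with the DNA-binding factor Foxh1. Nodal itself, Lefty1 and Lefty2 are among the targets, so the pathway feeds itself and also makes its own inhibitors. Gdf3 is a related ligand, and Cer1 is a secreted protein that binds Nodal. In the embryo the pathway maintains the epiblast and specifies the primitive streak, mesoderm and endoderm, and ES cells carry an active form of it in culture.

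Tdgf1 had the highest FPKM of the 9 genes in every library, Smad2 came 8th in every library and Cer1 was last. Tdgf1 stood at 258.7 FPKM in BirA, 166 in Yap1_OE, 168 in ESC, 211 and 199 in Yap1_KO1 and Yap1_KO2, 321 in Control, 338 in Yap1_KD1, 84.3 in dESC_control and 85.0 in dESC_Yap1_KD1. Both differentiated libraries lay below all others, and the 3 undifferentiated controls spanned 1.91-fold among themselves. Part of the Tdgf1 transcript is not its own: 12.5% of its windows of 50 bases also occur in the pseudogene Tdgf1-ps1 (GENCODE M21). Part of its value could therefore belong to the pseudogene, and how much was not measured.

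Smad2 was the steadiest of the 8. It ranged from 7.50 FPKM (Yap1_KD1) to 9.49 (Yap1_KO1). Acvr2b, a type II receptor, ranged from 9.15 FPKM (Yap1_KD1) to 19.9 (dESC_control), and ESC, at 17.4 FPKM, was above dESC_Yap1_KD1 at 16.4. Cer1 was listed at 0 in 7 libraries and at 0.0413 FPKM in ESC and 0.0950 in dESC_control, which correspond to about 1.06 and 3.18 fragments, so no change in it was detectable at this depth.

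**Figure D1:**
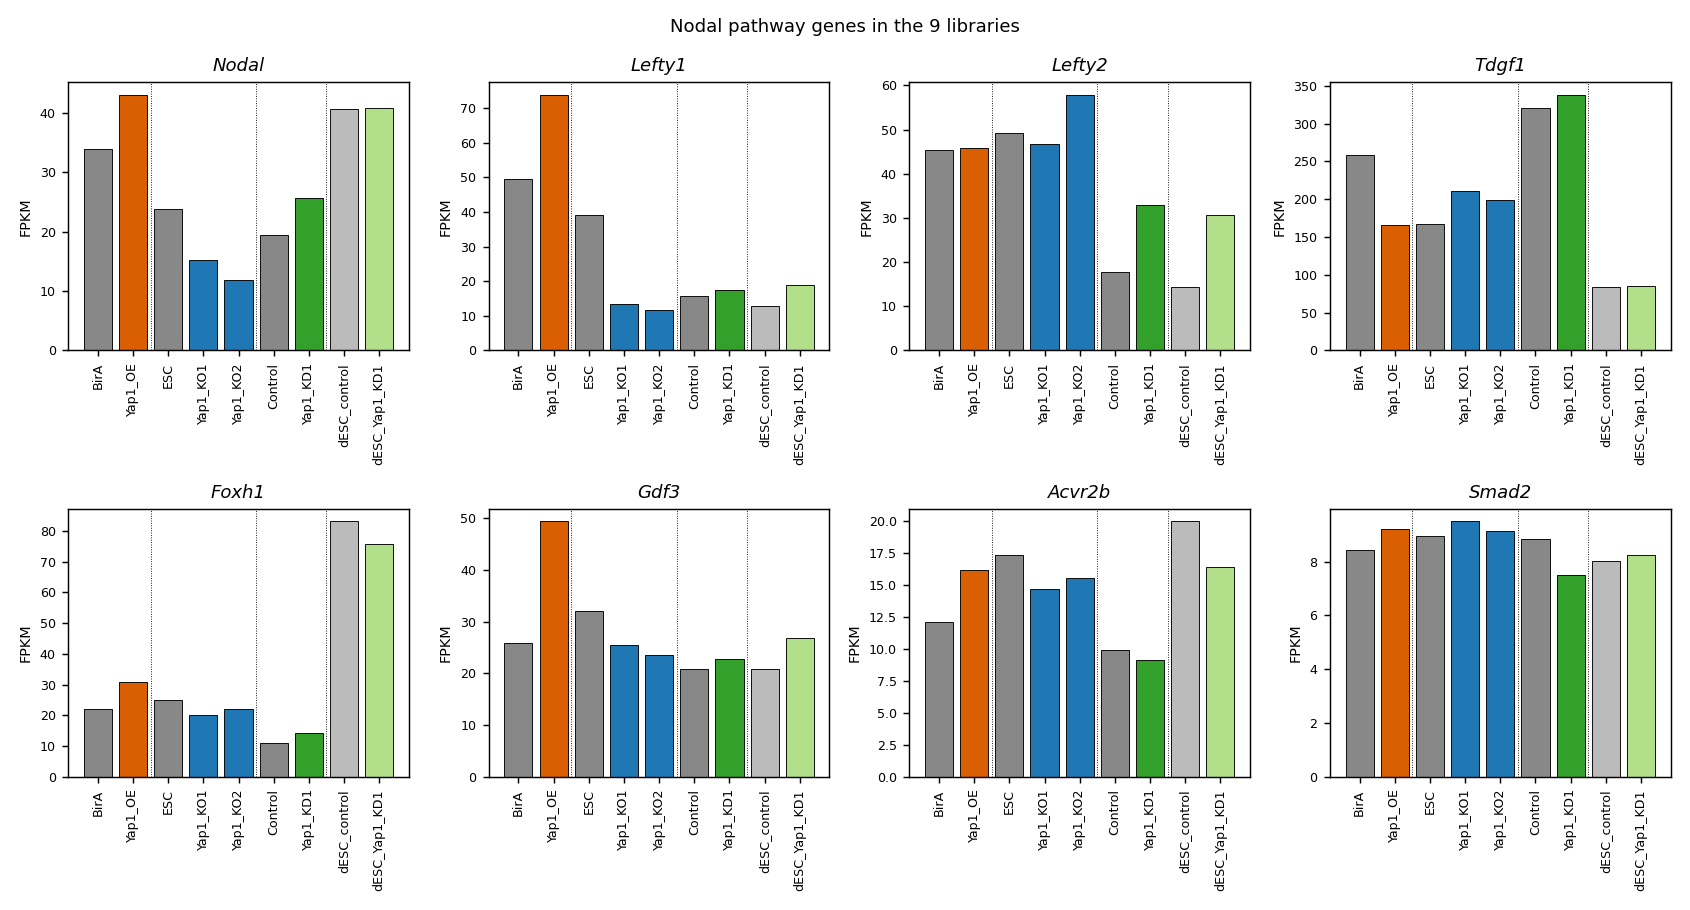
FPKM (vertical, linear, starting at 0 with its own scale in each panel) of the 8 members at 1 FPKM or more, with 1 bar per library. Dotted lines part the study's arms, grey bars are controls and no error bars are drawn because 1 bar is 1 library. Lefty1 spans 11.6 to 73.8 FPKM with its lowest values in Yap1_KO2, dESC_control and Yap1_KO1, Foxh1 is highest in the 2 differentiated libraries, and Smad2 stays between 7.50 and 9.49 FPKM.

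The first comparison sets the undifferentiated libraries labelled as Yap1 knockout against their control. Lefty1 and Nodal were lower in both knockout-labelled libraries than in ESC, whereas Lefty2 was not. Lefty1, an extracellular antagonist of Nodal, stood at 13.4 FPKM in Yap1_KO1 and 11.6 in Yap1_KO2 against 39.1 in ESC, or 34.3% and 29.8% of it. It was the 1 member of 8 at least 2-fold lower in both libraries, as were 0.979% of all genes compared (ratios for such calls were taken on log2(FPKM + 1)). The mean of the pair was 12.5 ± 1.24 FPKM (SD, n = 2), while the 3 undifferentiated controls ranged from 15.6 to 49.5 FPKM. An estimated 199.5 and 237.5 fragments lay behind these values, with counting errors of 7.08% and 6.49%.

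The tested change of Lefty1 against ESC was -1.57 (log2, SE 0.14), and with 1 residual degree of freedom it did not pass adjustment over all genes (limma with Benjamini-Hochberg adjustment, adjusted p = 0.0997). In that test 20 of 11538 genes (0.173%) were called and 0 of the 8 members, although 4 members (Lefty1, Nodal, Gdf3 and Tdgf1) and 2663 genes had an unadjusted p under 0.05. When 173 small RNA rows were left out, 0.419% of genes were called and Lefty1 was among them (adjusted p = 0.0256, limma). Those rows held 16.0% to 23.8% of the summed FPKM, but the other values were not rescaled. The change of Lefty1 stayed at -1.57 (SE 0.14). Over the alternatives tried, the adjusted p of Lefty1 ran from 0.0180 to 0.281 (limma).

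Nodal stood at 15.2 FPKM in Yap1_KO1 and 11.9 in Yap1_KO2 against 23.8 in ESC, which is 63.9% and 50.0% of it. These were the lowest Nodal values of the 9 libraries. Its change was -0.78 (SE 0.18, adjusted p = 0.156, limma), and it passed under none of the alternatives, where the adjusted p ran from 0.0798 to 0.296. Both genes have GC-rich transcripts (Lefty1 58.6%, Nodal 55.9%), and in these 2 libraries log2 ratios to ESC were lower for genes of higher transcript GC (Spearman's rho -0.58 and -0.59 across 10858 and 10802 genes, which are not replicates). With that trend removed, Lefty1 stood at -1.33 (adjusted p = 0.0689) and Nodal at -0.60 (adjusted p = 0.286, limma). Feeder fibroblast markers summed to 39.7 and 32.2 FPKM in the pair against 19.6 in ESC, nearly all of it Thy1 (39.2 and 32.0 against 18.7), while the collagen Col1a1 stood at 0.453 and 0.132 FPKM against 0.832. The part of Thy1-bearing cells in the result was not tested.

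Lefty2, the close relative of Lefty1, was near its control. It stood at 46.8 and 57.8 FPKM in Yap1_KO1 and Yap1_KO2 against 49.3 in ESC, a change of 0.076 (SE 0.16, adjusted p = 0.794, limma). The FPKM ratio of Lefty1 to Lefty2 was 0.794 in ESC and 0.286 and 0.202 in the pair, the lowest 2 of the 9 libraries. The 2 transcripts share 281 windows of 50 bases, 17.9% of those of Lefty1 and 11.6% of those of Lefty2, so part of either value could belong to the other gene. Gdf3, at 25.4 and 23.6 FPKM against 32.2, had a change of -0.38 (SE 0.11, adjusted p = 0.182, limma), and Tdgf1 one of 0.29 (SE 0.093, adjusted p = 0.195). In the mean of the pair, Foxh1, Acvr2b and Smad2 stayed within 0.23 of ESC on the log2 scale. Their adjusted p-values were 0.330, 0.386 and 0.822 in the same fit (limma). Foxh1 in Yap1_KO1 alone stood at -0.30.

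The knockout libraries have to be read beside the spread of the undifferentiated controls. BirA, ESC and Control are all control libraries of undifferentiated J1 cells, and Lefty1 stood at 49.5, 39.1 and 15.6 FPKM in them in turn. Control, at 15.6 FPKM, was nearer to the knockout pair than to ESC. Against ESC, Control was at least 2-fold lower in 3 of 8 members (1.91% of all genes): Lefty1 at 39.9%, Lefty2 at 36.0% and Foxh1 at 44.1% of the ESC value. Tdgf1 in Control was 1.91-fold of ESC. Against Control, BirA was at least 2-fold higher in Lefty1 and Lefty2 (0.409% of all genes). Between BirA and ESC no member was 2-fold apart (1.82% of all genes). With all 3 controls set against the knockout pair, the change of Lefty1 was -1.26 (SE 0.45, adjusted p = 0.182, limma).

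In the knockdown of undifferentiated cells no member of 8 was 2-fold apart between Yap1_KD1 and Control, as were 1.01% of all genes. Lefty2 differed most, at 32.9 FPKM against 17.8, or 1.85-fold, although it stood below ESC (49.3) and BirA (45.4). Nodal stood at 25.6 FPKM against 19.5 and was 1.32-fold of its control, whereas it was below its control in the knockout pair. Lefty1 was close to its control, at 17.4 against 15.6 FPKM, and over 2-fold below ESC (39.1) and BirA (49.5). Foxh1 stood at 14.1 against 11.0 FPKM, Gdf3 at 22.8 against 20.8 and Smad2 at 7.50 against 8.85.

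Fitted together with a term for the arm, the 3 knockout-labelled and knockdown libraries did not differ from their controls in any of 8 members past adjustment, and 0.0165% of 12128 genes were called (limma). No member and 819 genes had an unadjusted p under 0.05. The log2 changes were -0.84 for Lefty1 (SE 0.36, adjusted p = 0.773), -0.28 for Nodal (SE 0.27, adjusted p = 0.834) and 0.41 for Lefty2 (SE 0.20, adjusted p = 0.783, limma). Yap1 RNA itself overlapped between these groups, at 57.3 FPKM in Yap1_KO1 against 46.7 in BirA and 37.4 in Control. No member kept the 3 controls apart from these 3 libraries without overlap, as 8.99% of all genes did.

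The 2 arms were also set against each other, in a fit chosen after seeing the data. The change in the knockout pair minus that in the knockdown was -1.72 for Lefty1 (SE 0.21, adjusted p = 0.345) and -1.16 for Nodal (SE 0.29, adjusted p = 0.345, limma). For Lefty2 it was -0.78 (SE 0.26, adjusted p = 0.349, limma). None of the 8 members passed, and 0.272% of all genes did (limma, 1 residual degree of freedom). An unadjusted p under 0.05 was found for 4 members (Lefty1, Nodal, Foxh1 and Gdf3) and for 14.4% of all genes. The arms therefore were not shown to differ in any member.

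**Figure D2:**
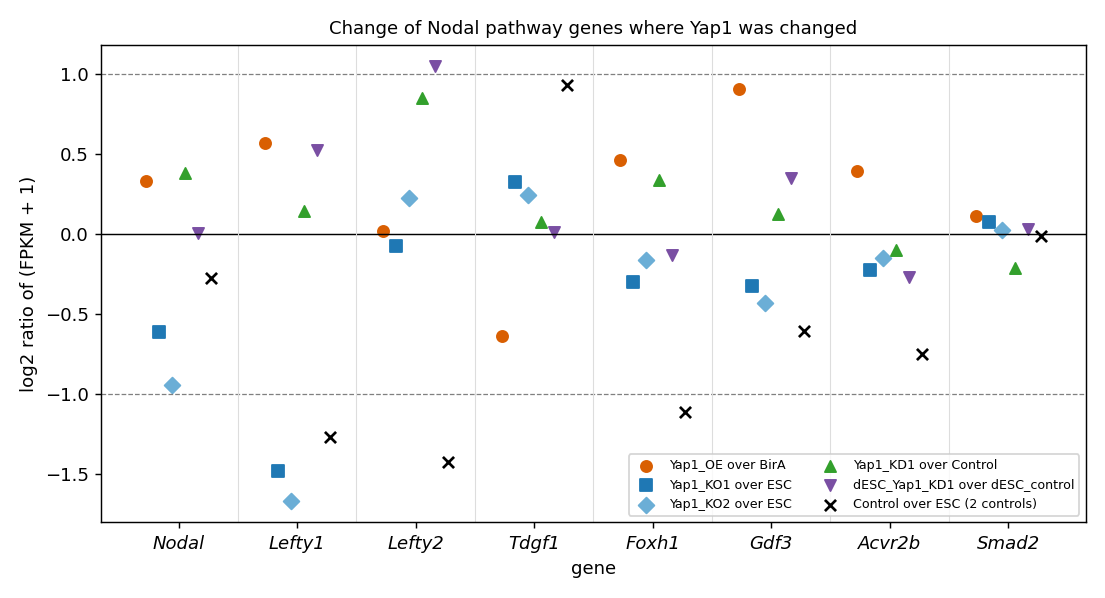
Log2 ratio of FPKM + 1 (vertical) of each member (horizontal), with 1 point per library set against its own control and a cross for Control against ESC; dashed lines mark 2-fold. Lefty1 lies at -1.48 and -1.67 in the knockout pair and at 0.14 in the knockdown, Lefty2 at 0.85 in the knockdown and 1.05 in the differentiated knockdown, and the cross for Lefty1 lies at -1.27.

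Overexpression of Yap1 went with higher Gdf3 and Lefty1 and lower Tdgf1, none of them past 2-fold. Gdf3 stood at 49.4 FPKM against 25.8 in BirA, 1.91-fold and its highest value of the 9 libraries. Lefty1 stood at 73.8 against 49.5 FPKM (1.49-fold), also the highest of the 9. Nodal stood at 43.0 against 34.0 FPKM, and Foxh1 at 30.7 against 22.0. Tdgf1, the co-receptor, stood at 166 against 258.7 FPKM, or 64.3% of BirA. Lefty2 was level, at 45.9 against 45.4 FPKM. None of 8 members was 2-fold apart, as were 3.95% of all genes compared.

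These ratios depended on which control was used. Against ESC, Tdgf1 in Yap1_OE was level (log2 ratio -0.012) and Gdf3 was higher by 0.60. Against Control, 5 of 8 members were at least 2-fold higher (2.96% of all genes), among them Lefty1 at 4.72-fold, and those were Nodal, Lefty1, Lefty2, Foxh1 and Gdf3. The overexpression library also had the highest sum of epiblast markers among the undifferentiated libraries (165 FPKM, others 51.3 to 92.5) and the lowest sum of ES cell markers (1971 FPKM). Of the fibroblast list, Thy1 stood at 4.64 FPKM against 19.3 in BirA and Col1a1 at 1.65 against 1.40. The part of these markers' cells in the ratios was not tested.

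The largest changes of the pathway came with differentiation. Foxh1, Nodal and Acvr2b rose and Tdgf1 fell, with and without knockdown of Yap1, while Lefty1, Lefty2, Gdf3 and Smad2 did not pass the test. In bulk RNA fewer cells of a type and less RNA per cell cannot be told apart. Foxh1, the DNA-binding partner of Smad2, stood at 83.0 FPKM in dESC_control and 75.7 in dESC_Yap1_KD1. In the 7 undifferentiated libraries it ranged from 11.0 (Control) to 30.7 (Yap1_OE), with a median of 22.0. It was the 1 member with both differentiated libraries above all undifferentiated ones, a pattern that 21% of all genes had. Foxh1 was 2nd of the 9 genes by FPKM in both differentiated libraries.

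Against the undifferentiated knockdown arm, the change of Foxh1 with differentiation was 2.58 (log2, SE 0.16, adjusted p = 0.0125), and that of Tdgf1 was -1.95 (SE 0.091, adjusted p = 0.0121, limma with a term for the knockdown). That fit used 4 libraries without replicates, which left 1 residual degree of freedom. Its residual is the difference between the changes with and without knockdown, so its SE does not measure spread between replicates. Tdgf1 in the differentiated libraries was 26.3% and 25.2% of its level in Control and Yap1_KD1. It was the 1 member with both differentiated libraries below all undifferentiated ones, as were 18.9% of all genes. The FPKM ratio of Tdgf1 to Foxh1 was 29.3 in Control, 23.9 in Yap1_KD1, and 1.02 and 1.12 in the differentiated pair.

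Nodal stood at 40.7 FPKM in dESC_control and 40.9 in dESC_Yap1_KD1, 2.09-fold and 1.59-fold of the undifferentiated libraries of the same arm (log2 change 0.84, SE 0.14, adjusted p = 0.0246, limma). Acvr2b stood at 19.9 and 16.4 FPKM (change 0.86, SE 0.13, adjusted p = 0.0206). In this fit 3 of 8 members were called higher, beside 20.3% of 12719 genes, and 1 was called lower, beside 18.6%. Many genes changed with differentiation, so these shares are read only as the background. With BirA and ESC added as controls, 31.1% of all genes were called; Nodal (change 0.67, adjusted p = 0.0724) and Acvr2b (0.67, adjusted p = 0.0730) no longer passed, and Foxh1 (2.21, adjusted p = 0.00628) and Tdgf1 (-1.69, adjusted p = 0.00865) did (limma). Nodal in Yap1_OE, at 43.0 FPKM, was above both differentiated values.

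By the 2-fold rule, dESC_control against Control had 2 members higher (Foxh1 and Nodal; 13.1% of all genes) and 1 lower (Tdgf1; 10.1%). Nodal, at a log2 ratio of 1.03, was under 2-fold when centred on the median ratio (0.99), at a pseudocount of 5 (0.90), with the GC trend removed (0.85) and against ESC (0.75) or BirA (0.25). Likewise, dESC_Yap1_KD1 against Yap1_KD1 had 1 member higher (Foxh1, 5.36-fold, beside 10.3% of all genes) and 1 lower (Tdgf1, beside 10.4%). The antagonists were not among them. Lefty1 stood at 12.9 and 19.0 FPKM after differentiation, a change of -0.066 (SE 0.15, adjusted p = 0.745), and Lefty2 at 14.3 and 30.5 FPKM, a change of -0.20 (SE 0.12, adjusted p = 0.247, limma). Control, however, had the lowest values of the undifferentiated controls for both genes. With BirA and ESC added as controls, the changes were -0.68 for Lefty1 (SE 0.52, adjusted p = 0.341) and -0.77 for Lefty2 (SE 0.47, adjusted p = 0.248, limma). Against ESC (39.1 and 49.3 FPKM) or BirA (49.5 and 45.4 FPKM) alone, both were at least 2-fold lower in dESC_control. So were 823 of 12141 genes against ESC and 927 of 12174 against BirA. Their values in differentiated cells lay within the range of the undifferentiated libraries for Lefty1 and, in dESC_control, below the range for Lefty2, whose lowest undifferentiated value was 17.8 FPKM. Gdf3 had a change of 0.11 (SE 0.12, adjusted p = 0.496) and Smad2 one of -0.0025 (SE 0.15, adjusted p = 0.991, limma).

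**Figure D3:**
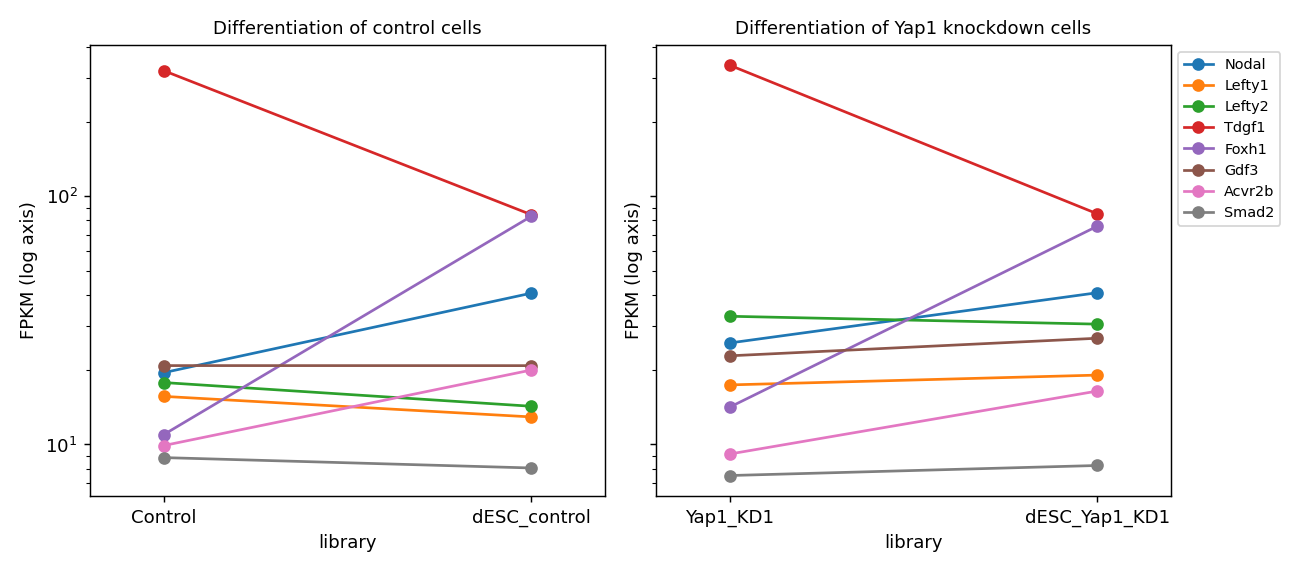
FPKM on a log axis (vertical) of the 8 members before and after differentiation, with 1 point per library; the left panel joins Control to dESC_control and the right panel Yap1_KD1 to dESC_Yap1_KD1. Foxh1 goes from 11.0 and 14.1 up to 83.0 and 75.7 FPKM, and Tdgf1 from 321 and 338 down to 84.3 and 85.0.

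The promoters of Tdgf1 and Nodal are shown because the 2 genes, co-receptor and ligand of one receptor complex, changed in opposite directions with differentiation. RefSeq promoter windows (GRCm38.p6, 250 bases before to 50 after the annotated start; the deposited values used mm9) were found for 4 of the 9 members. Tdgf1 lies on the minus strand at chr9:110946109-110946408 and Nodal on the plus strand at chr10:61417722-61418021. Capitals mark matches to the Foxh1 motif TGTNNATT (AATNNACA on the other strand) and to the Smad motif CAGAC (or GTCTG).
Tdgf1: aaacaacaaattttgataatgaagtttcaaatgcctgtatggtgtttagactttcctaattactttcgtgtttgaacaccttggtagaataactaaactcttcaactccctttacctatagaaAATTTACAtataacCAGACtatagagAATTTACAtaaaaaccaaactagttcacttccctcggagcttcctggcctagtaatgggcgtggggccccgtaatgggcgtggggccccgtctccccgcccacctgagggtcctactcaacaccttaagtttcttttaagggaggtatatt
Nodal: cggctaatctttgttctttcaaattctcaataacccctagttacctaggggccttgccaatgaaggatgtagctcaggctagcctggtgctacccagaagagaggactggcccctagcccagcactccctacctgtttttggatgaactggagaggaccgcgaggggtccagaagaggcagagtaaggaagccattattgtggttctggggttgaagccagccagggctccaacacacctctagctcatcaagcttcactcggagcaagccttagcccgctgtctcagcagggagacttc
The Tdgf1 window holds 2 matches to the Foxh1 motif, starting at -127 and -101 from the start, and a Smad match between them at -113. The Nodal window holds no match to either, nor to the Tead motif GGAATG (or CATTCC), which Tdgf1 lacks as well. Of 27025 RefSeq windows of this length, 12.3% hold the Foxh1 motif, 49.7% the Smad motif and 14.6% the Tead motif, so single matches are common. The Foxh1 motif as searched accepts any base at its N positions, and both of its matches in Tdgf1 read AATTTACA. The Cer1 and Acvr2b windows hold 1 Smad match each. A match describes the letters only, and these data do not measure binding. Sequence outside these windows was not searched, so sites elsewhere in these genes are not covered. Lefty1, Lefty2, Foxh1, Gdf3 and Smad2 have no entry in the table used.

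In differentiated cells with lowered Yap1, Lefty2 stood higher and Nodal was level. Lefty2 was 30.5 FPKM in dESC_Yap1_KD1 against 14.3 in dESC_control (2.14-fold) and was the 1 of 8 members at least 2-fold higher, beside 1.71% of all genes. Lefty1 was 1.47-fold, at 19.0 against 12.9 FPKM. Nodal stood at 40.9 against 40.7 FPKM, and Tdgf1 at 85.0 against 84.3. Gdf3 stood at 26.8 against 20.8 FPKM, Foxh1 at 75.7 against 83.0 and Acvr2b at 16.4 against 19.9. No member was 2-fold lower, as were 4.77% of all genes. Lefty2 was thus 1.85-fold and 2.14-fold of its control in the 2 knockdown libraries, each without a replicate, and 0.949 and 1.17 of ESC in the knockout pair.

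Of the other genes of the pathway, 24 were listed for their textbook roles. None passed in the knockout pair (19 tested; median log2 change 0.067, all genes 0.0061) or in both arms fitted together (19 tested, limma), and none was 2-fold apart in the knockdown (18 compared). The ligand gene Gdf1 was the 1 of 19 at least 2-fold lower in Yap1_KO1 (3.23 FPKM against 9.04 in ESC; 1.69% of all genes), and it stood at 5.10 in Yap1_KO2. With overexpression 2 of 20 were at least 2-fold lower (2.35% of all genes) and none higher (1.6%). These were Inhbb, the beta B subunit of activin B, at 3.94 FPKM against 16.5 in BirA, and the ligand Tgfb1, at 6.14 against 13.3. Inhbb varied widely among controls, with 16.5 FPKM in BirA, 54.4 in ESC and 19.7 in Control.

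With differentiation 7 of 21 tested rose, beside 20.3% of all genes, and 2 fell, beside 18.6% (median log2 change 0.56, all genes 0.018, limma). Fst, which encodes follistatin, an antagonist of activins, rose most, from 0.924 and 0.317 FPKM to 21.5 and 23.8 (change 3.89, SE 0.23, adjusted p = 0.0123, limma). Furin, a protease that cleaves the Nodal precursor, went from 5.30 and 5.13 to 22.2 and 18.2 FPKM (change 1.76, SE 0.14, adjusted p = 0.0135). The signal carriers Smad3 (1.02) and Smad4 (0.90) and the corepressors Ski (1.02) and Tgif2 (0.90) also rose, as did the ligand Tgfb2 (2.09). Fst, Tgfb2 and Tgfbr2 were under 1 FPKM in Control and Yap1_KD1. These genes entered only through the differentiated libraries and had little room to fall, while Inhbb entered only through the undifferentiated ones. The counts and the median partly reflect this filter. Inhbb fell to 0.348 and 0.810 FPKM (change -3.90, SE 0.15, adjusted p = 0.0119), and the type I receptor Acvr1b fell by 0.53. In differentiated cells with lowered Yap1, Gdf1 was at least 2-fold higher and Tgfb1, Tgfb2 and Pmepa1 were at least 2-fold lower, of 20 compared (1.71% of all genes were higher and 4.77% lower; median log2 ratio -0.062, all genes -0.011).

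Genes known as targets of Nodal in the embryo were mostly low before differentiation, other than Otx2, which ranged from 20.0 to 36.2 FPKM. Of 10 listed, 3 or 4 reached 1 FPKM in the comparisons of undifferentiated cells with their own controls, and none was called or 2-fold apart. With differentiation 4 of 8 tested rose, beside 20.3% of all genes, and none fell, beside 18.6% (median log2 change 1.43, all genes 0.018, limma): T, the brachyury factor of the primitive streak (5.12, SE 0.50, adjusted p = 0.0146), Fgf8 (2.91), Mixl1 (2.35) and Eomes (2.25). T went from 0.0911 and 0.141 FPKM to 70.7 and 20.0. Of the 8, T, Mixl1, Gsc and Lhx1 were under 1 FPKM in Control and Yap1_KD1. They entered only through the differentiated libraries and had little room to fall, so the counts and the median partly reflect this filter.

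In differentiated cells with lowered Yap1 several of these targets were lower while Nodal was level. Of 8 compared 4 were at least 2-fold lower than in dESC_control (4.77% of all genes) and 1 was higher (1.71%; median log2 ratio -1.13, all genes -0.011). Mixl1 stood at 1.95 FPKM against 12.2, T at 20.0 against 70.7, and Fgf8 at 12.0 against 34.5. Gsc stood at 0.516 against 2.72 FPKM. Gsc and Lhx1 (0.028 against 1.01 FPKM) entered only through dESC_control and could not have counted as higher. The count and the median partly reflect this filter. Otx2, a factor of epiblast and anterior neural tissue, was the exception, at 81.0 FPKM against 24.0. The list shares genes with the primitive streak markers, whose sum moved the same way (43.2 against 137 FPKM), and the sum of epiblast markers, which include Otx2, was 417 against 258 FPKM. Each side is 1 library, so these ratios carry no test.

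**Figure D4:**
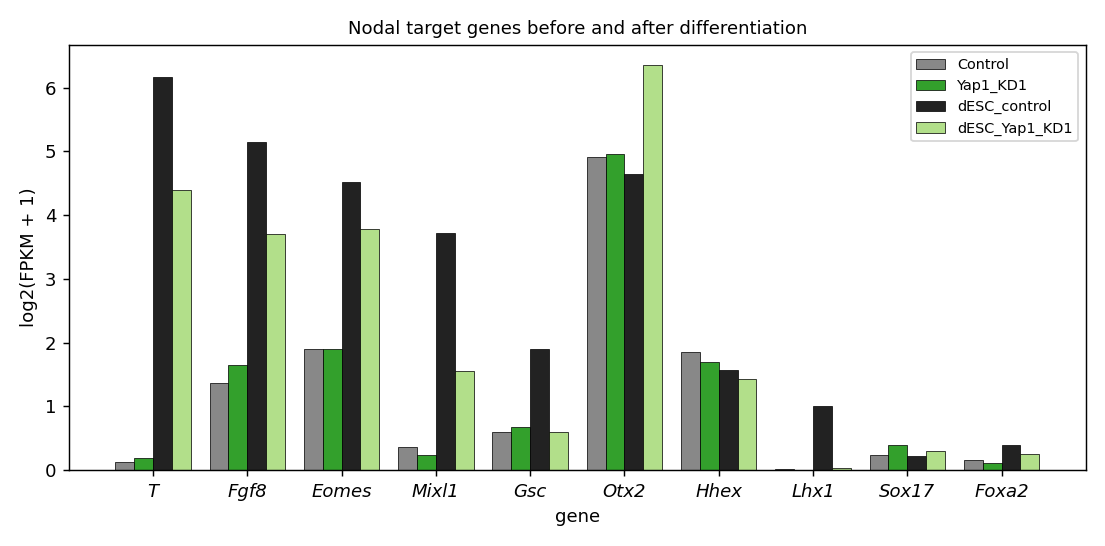
Log2(FPKM + 1) (vertical, from 0) of the 10 listed Nodal target genes (horizontal), with 1 bar per library for Control, Yap1_KD1, dESC_control and dESC_Yap1_KD1. T, Fgf8 and Mixl1 are low before differentiation and stand higher in dESC_control than in dESC_Yap1_KD1, while Otx2 is highest in dESC_Yap1_KD1.

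The genes whose profiles over the 9 libraries were most like that of Nodal were Gstm2, Dnajb12, Epcam, Pctp and Anapc16, with root mean square differences of 0.131, 0.177, 0.210, 0.220 and 0.231 between centred log2 values, among 8273 genes. Gstm2 encodes a glutathione transferase and Epcam an epithelial adhesion molecule. The Nodal profile's own root mean square was 0.604. For Lefty1 the nearest were Ptch1 (0.371), Hnrnph3 (0.487), Mok (0.495), Pdgfc (0.505) and Mycn (0.506), against 0.875 for Lefty1 itself. Ptch1, the Hedgehog receptor and a target of that pathway, stood at 67.2 FPKM in Yap1_OE, 34.5 in ESC, 13.4 and 13.9 in the knockout pair and 7.42 in dESC_control. Among the members, Gdf3 was 21st, Nodal 223rd and Lefty2 1969th in likeness to Lefty1, while Lefty1 was 5716th in likeness to Nodal. The difference between Lefty1 and Nodal is the same both ways, at 0.751. It lies above the Nodal profile's own 0.604 and below the 0.875 of Lefty1, so the 2 ranks differ. These profiles share libraries, depth and GC trends and are given as a description.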

How the data were processed

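The authors deposited 1 table of FPKM values per gene for 9 libraries. TopHat2, Cuffdiff and build mm9 were used, per the submitters' processing notes; the sources used here give no versions, annotation or strandedness. The header names no unit; FPKM was read from the tool and from the values. Of 23277 rows, 4746 were blank and 27 carried symbols turned into dates, which left 18504 genes. A 0 can be a failed estimate. Depth was estimated from the steps between low FPKM values and 198 long genes (quartiles 12.6 to 14.8 M, or mega, fragments for BirA).

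Ratios and tests used log2(FPKM + 1), which understates changes of low genes, over genes at 1 FPKM or more in a library compared. Comparisons of 1 library with 1 used a 2-fold rule and no p-value. Other comparisons were fitted with limma (version 3.58.1, R 4.3.3), whose prior variance followed the mean, and p-values were adjusted over all genes by Benjamini-Hochberg at 0.05, and lone libraries were assumed to vary like the rest. The fits were also run on simulated libraries with known changes, and the outcome is not given here. Percentages and folds of named genes are ratios of FPKM. Named genes were all members, the pathway and target genes past the rule, and the 5 nearest profiles of Nodal and Lefty1 among genes averaging at least 5 FPKM. Members, lists and tests were chosen with earlier results of these data known. GC content (GENCODE M21) was known for 94.9% of genes. Alternatives changed the pseudocount, filter, centring, trend, controls, libraries, small RNA rows and GC trend. A target gene of the list is not reported here.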

Additional observations from a re-analysis of the deposited data

Results flagged for a closer look

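For several members the log2 changes of one contrast had one sign in every library and those of another contrast the opposite sign, some of them close to 0. In the following, each value is a difference between 2 log2 changes. The knockout pair minus the ES cell knockdown gave -1.16 for Nodal, -1.72 for Lefty1, -0.57 for Foxh1, -0.50 for Gdf3 and 0.27 for Smad2. In the fit of that difference (limma, 8 members) none passed adjustment, and the adjusted p was 0.345 for both Nodal and Lefty1.

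The remaining differences were not tested. The knockout pair minus the differentiated knockdown gave -0.78 for Nodal (0.0056 in the differentiated knockdown itself), -2.10 for Lefty1 and -0.73 for Gdf3. The ES cell knockdown minus the differentiated knockdown gave 0.47 for Foxh1 and -0.24 for Smad2. The change from Control to dESC_control minus that from Yap1_KD1 to dESC_Yap1_KD1 gave -0.38 for Lefty1, -0.23 for Gdf3 and -0.24 for Smad2. For Gdf3 the change from Control to dESC_control was itself -0.00066. No group held 4 or more libraries, so no search for single deviating libraries was made.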

How the results depend on the processing

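In the knockout comparison 20 genes were called. The count was 0 with no filter, 48 without small RNA rows, 1 with all 3 controls, 35 with the GC trend removed and 95 with both that and no small RNA rows. Lefty1 was the 1 member called without small RNA rows, with or without the GC trend. With all 3 controls, Tdgf1 changed sign to -0.23, Foxh1 to 0.20 and Acvr2b to 0.22. With the GC trend removed, Foxh1 stood at 0.025 (0.026 also without small RNA rows) and Smad2 at -0.15 (-0.15). Both arms together gave 2 calls. That became 1 at a pseudocount of 0.1, at a filter of 5 FPKM, with no filter or with the differentiated pair as another arm, 4 without small RNA rows and 0 with no arm term and BirA added as a control. Leaving out a knockout library gave 4 (without Yap1_KO2) to 15 (without Yap1_KO1). There Foxh1 reversed to -0.0022 when centred and -0.029 with the differentiated pair, and Acvr2b to 0.0029 with no arm term and BirA added.

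In differentiation 2 of the 4 members called remained with BirA and ESC added, where Gdf3 stood at -0.091; with the GC trend removed Smad2 stood at 0.072. The difference between arms had 33 calls, 3 at a pseudocount of 0.1 and 1 without small RNA rows, and Acvr2b reversed to 0.12 with the GC trend removed. By the 2-fold rule, overexpression had 0 members higher, and 5 against Control. The knockdown had 0, and 1 higher and 1 lower against ESC and 1 lower against BirA. The differentiated knockdown's 1 higher member became 0 at a pseudocount of 5. For dESC_control, 2 higher members became 1 at a pseudocount of 5, when centred, with the GC trend removed, or against ESC or BirA. Its 1 lower member, Tdgf1, became 2 against ESC, which were Lefty1 and Lefty2. Tdgf1, at 84.3 against 168 FPKM, was just short of 2-fold lower there. Against BirA the 3 lower members were Tdgf1, Lefty1 and Lefty2. The cause of these shifts was not tested. No paired analysis was possible because the groups share fewer than 2 replicate numbers. No library could be left out of the differentiation fit.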
